A study of Mus musculus with 12 samples.

Results

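Enteroendocrine transcripts of the mouse colon were followed through 9 genes: the hormone genes Insl5, Pyy, Gcg, Sst, Sct, Cck and Nts, and Neurod1 and Scgn, which endocrine cells of the gut also use. They were chosen with earlier results of these data known and were matched by gene symbol. All 9 were found among the 27179 genes of the table. Each also passed the minimum level, so that all 9 were among the 16164 genes tested. RNA came from the whole thickness of the colon wall, at the place that had received diphtheria toxin. Control libraries (n = 5) came from littermates labelled R26-iDTR and Cre-negative, and ablated libraries (n = 7) from mice labelled BAF53b-Cre::R26-iDTR. Every animal of both groups had a laparotomy and 4 µL of toxin at 0.33 ng per µL in PBS with 10% India ink. The receptor for the toxin sits at the Rosa26 locus in both genotypes, and Cre driven by BAF53b, a neuronal subunit of a chromatin remodelling complex, is needed to express it. The labels give no age, sex or interval between toxin and dissection, and do not say whether each library is its own animal, so the p-values below speak only of library-to-library spread, which may be technical.

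Enteroendocrine cells are scattered hormone-secreting cells of the gut epithelium. In the colon, L cells make proglucagon (the source of GLP-1 and GLP-2), peptide YY and INSL5, D cells make somatostatin, and enterochromaffin cells make serotonin. Their peptides are cut from longer precursors, stored in dense granules and released in response to nutrients and bacterial products, to act on nearby nerve endings, on other epithelial cells or through the blood. Several of the same genes are not restricted to the epithelium: somatostatin, cholecystokinin and secretagogin are also made by neurons. In a full-thickness piece the RNA of both sources is added up.

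Sst and Scgn were lower in the ablated colon and 7 were not called. The promoters of these genes and of Pyy and Sct, which varied together between libraries, are shown so that their letters can be set beside the values. Each is the 250 bases before the first RefSeq start listed for the gene, on the minus strand of GRCm38.p6 and written 5′ to 3′. Capitals mark the cAMP response element TGACGTCA, the E-box CANNTG that NEUROD1 and related factors can bind, and TATAAA, each searched on both strands. Matches did not overlap.
Sst, chr16:23890845-23891094: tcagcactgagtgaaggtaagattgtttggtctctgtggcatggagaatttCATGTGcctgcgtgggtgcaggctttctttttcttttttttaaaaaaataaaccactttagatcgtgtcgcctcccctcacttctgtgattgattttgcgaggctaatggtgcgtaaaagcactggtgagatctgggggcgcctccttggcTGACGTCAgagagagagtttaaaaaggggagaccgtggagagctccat
Scgn, chr13:23991215-23991464: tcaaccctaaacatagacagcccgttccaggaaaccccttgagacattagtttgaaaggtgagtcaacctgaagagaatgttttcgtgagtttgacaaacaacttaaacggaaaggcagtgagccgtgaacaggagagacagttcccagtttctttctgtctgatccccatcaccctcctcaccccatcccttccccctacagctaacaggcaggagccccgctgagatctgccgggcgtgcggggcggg
Pyy, chr11:102107833-102108082: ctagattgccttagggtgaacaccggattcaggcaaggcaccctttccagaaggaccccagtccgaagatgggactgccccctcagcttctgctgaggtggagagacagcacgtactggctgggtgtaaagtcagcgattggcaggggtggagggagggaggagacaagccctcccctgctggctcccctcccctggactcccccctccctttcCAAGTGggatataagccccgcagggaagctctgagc
Sct, chr7:141279134-141279383: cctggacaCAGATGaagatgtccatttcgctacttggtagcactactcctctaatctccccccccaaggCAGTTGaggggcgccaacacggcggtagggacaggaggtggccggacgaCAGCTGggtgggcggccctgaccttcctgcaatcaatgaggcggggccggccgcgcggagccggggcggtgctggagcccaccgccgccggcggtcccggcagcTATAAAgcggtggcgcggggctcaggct
The Sst window held 1 cAMP response element, beginning 48 bases before the RefSeq start, and 1 E-box. In the GENCODE coordinates used below Sst begins at 23890958, so the element and part of this window lie inside the gene. Such an element was present in 1.62% of the 27025 gene windows of this length and in none of the other 8 members. The Scgn window held none of the 3 motifs. An E-box occurred in 66% of all windows and TATAAA in 13%, the Pyy window held 1 E-box, and the Sct window held 3 E-boxes and TATAAA beginning 28 bases before the start. These matches are descriptions of letters and were not tested for function.

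The values are TPM, transcript abundance scaled to gene length and to the library, so that levels of different genes can be compared. Recovered whole reads amounted to 13.4 M to 26.9 M per library. One library stood apart: ablated 1 was the shallowest, with 18.7% of its reads from mitochondrial genes (3.56 to 10.4% elsewhere). Actl6b, which encodes BAF53b, was at 0.971 ± 0.372 TPM in control and 0.447 ± 0.224 TPM in ablated, and Hbegf, the mouse gene for the protein the toxin binds in sensitive species, at 11.8 ± 3.63 and 11.3 ± 3.36 TPM. Neither passed (adjusted p = 0.222 and 0.980). The tissue carried epithelial transcripts in both groups. Summed over 10 epithelial markers the level was 15487 to 17648 TPM in control and 14857.5 to 21153 TPM in ablated, with 0 of 10 called by limma, 0 at an unadjusted p under 0.05 and 0 by voom. Of these Cdh1 varied most, at 64.2 to 151 TPM in control and 38.0 to 325 TPM in ablated. Of 7 pancreas markers Ins2 was at 0 in every library, Prss1, Prss2, Cpa1, Pnlip and Ins1 averaged under 0.15 TPM in both groups, and Cela1 was at 472 ± 54.4 and 446 ± 191 TPM. Below, group values are means ± SD, fold is the ratio of the means, and log2 fold changes are ablated minus control on the log2(TPM + 0.5) scale, which understates changes of low genes. Adjusted p is limma's over all 16164 genes tested. Unadjusted p-values under 0.05 were common over all genes tested. That of Sstr5, a somatostatin receptor, was 0.0489 in limma and went with an adjusted p of 0.419. List counts at an unadjusted p under 0.05, and those by voom, are given without the share of all genes. They are descriptions and do not show that a list stood out.

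In these pieces of colon Insl5 and Pyy were the most abundant members, Gcg and Sst followed, and Sct, Scgn, Neurod1, Cck and Nts came last. Control means were 399 ± 91.8 TPM for Insl5, 358 ± 39.7 TPM for Pyy, 61.7 ± 17.4 TPM for Gcg, 44.4 ± 8.19 TPM for Sst, 11.2 ± 1.17 TPM for Sct, 9.12 ± 2.71 TPM for Scgn, 2.52 ± 0.628 TPM for Neurod1, 1.72 ± 1.19 TPM for Cck and 0.343 ± 0.196 TPM for Nts (n = 5). The first pair did not differ beyond its spread: Insl5 exceeded Pyy in 2 of 5 control and 4 of 7 ablated libraries. Pyy was above Gcg in all 12 libraries, by 4.38 to 26.9 times. Gcg and Sst overlapped in control, where Gcg was the higher in 4 of 5 libraries, as did Sct and Scgn (3 of 5) and Neurod1 and Cck (3 of 5). Cck was above Nts in 5 of 5 control libraries, although their ranges over libraries overlapped. Scgn was at 1.79 to 6.71 times the level of Neurod1 in control and at 0.772 to 2.08 times in ablated, where it was the higher in 6 of 7 libraries. The means of Insl5 and Pyy, 399 and 358 TPM in control, stood in the other order in ablated, at 392 and 419 TPM.

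**Figure D1:**
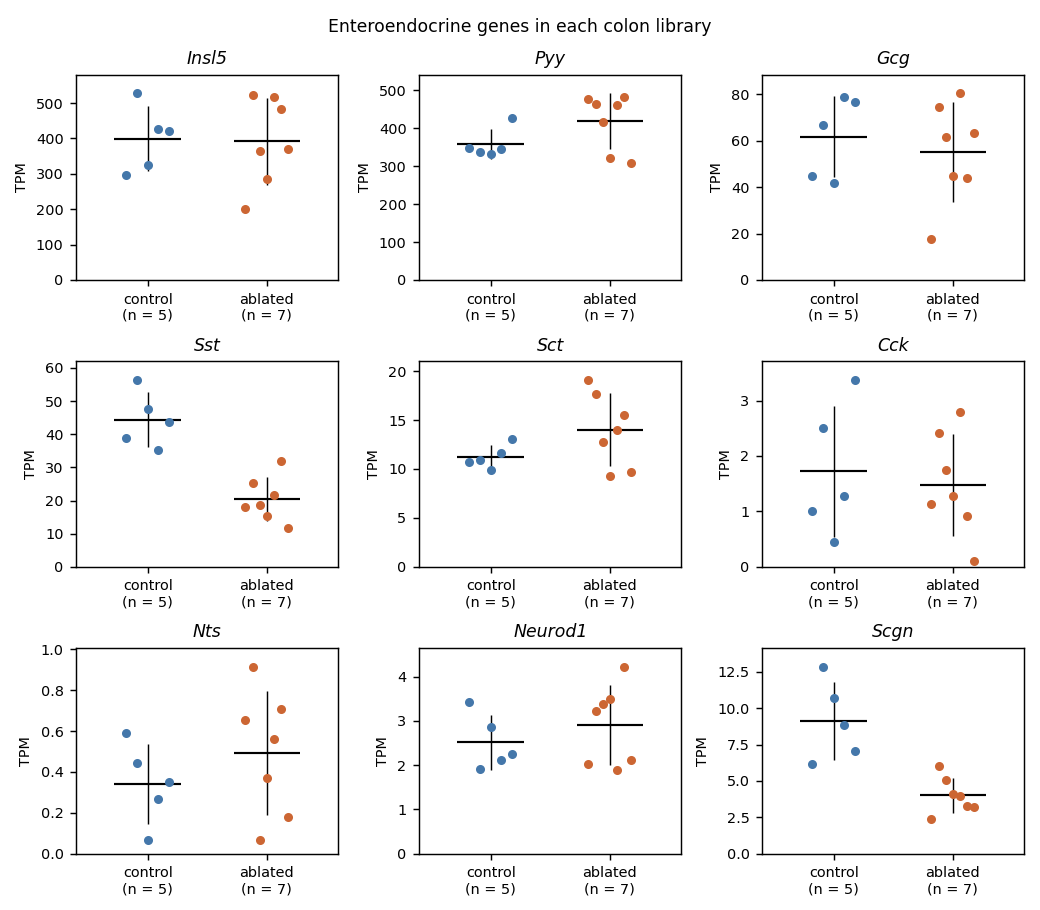
TPM (vertical axes, linear and starting at 0) of the 9 enteroendocrine genes in each control and ablated library. Points are libraries, horizontal bars group means and vertical bars 1 SD. For Sst and Scgn all 7 ablated libraries lie below all 5 control libraries, and for the other 7 genes the groups overlap.

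Somatostatin is the inhibitory peptide of D cells, which restrains other endocrine cells and secretion, and it is also a neuropeptide of enteric neurons. Sst (gene ID 20604, mm10 chromosome 16, 23889573 to 23890958, minus strand) was at 38.9, 56.3, 47.7, 35.2 and 43.8 TPM in control 1 to 5. In the ablated libraries it ranged from 11.9 TPM in ablated 7 through a median of 18.5 TPM to 31.9 TPM in ablated 6. All 7 ablated libraries lay below the lowest control, which was 1.10 times the highest ablated one. The means were 44.4 ± 8.19 and 20.4 ± 6.66 TPM, 2.18-fold lower, with a log2 fold change of -1.15 (SE 0.21, 95% interval -1.60 to -0.69, adjusted p = 0.0138). The call rested on 1611 recovered reads in control and 1042 in ablated. It was lost without control 2 (adjusted p = 0.0586) or control 3 (adjusted p = 0.0505), with log2 fold changes of -1.06 and -1.12, in a range over 23 alternatives of 0.00141 to 0.0586. Without ablated 1 the log2 fold change was -1.13 (adjusted p = 0.0225).

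Secretagogin is a calcium-binding protein of endocrine cells and of some neurons. Scgn (gene ID 214189, chromosome 13, 23953456 to 23991214, minus strand) stood at 6.15, 12.8, 10.7, 8.85 and 7.07 TPM in control 1 to 5, and in ablated at 2.37 TPM (ablated 1) to 6.05 TPM (ablated 2) with a median of 3.94 TPM. The groups did not overlap, though the lowest control was only 1.02 times the highest ablated library. The log2 fold change was -1.09 (SE 0.22, 95% interval -1.58 to -0.61, adjusted p = 0.0260). This call was the less stable of the pair. It was lost without control 2, 3 or 4 (adjusted p = 0.0969, 0.0956 and 0.0670) or ablated 6 or 7 (adjusted p = 0.0564 and 0.0601), in a range of 0.00612 to 0.0969 over the alternatives, and was -0.99 without ablated 1 (adjusted p = 0.0276).

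Both calls, 2 of 9 members lower and 0 higher, stand against 1.43% of all genes tested that were called in either direction, 1.01% lower and 0.421% higher. The 9 genes were chosen with earlier results of these data known, so these shares are a description and not an independent comparison. Groups did not overlap in 2.88% of all genes tested, and in 1.55% with ablated the lower. The median log2 fold change of the 9 members was -0.07, beside 0.03 for all genes tested. In bulk tissue fewer cells that make a transcript and less of it per cell cannot be told apart. Transcripts of enteric neurons were lower in ablated as well. Of 13 tested neuron markers 12 were called lower, all but Elavl3 (log2 fold change -0.92, adjusted p = 0.0988), and voom called 13. The summed level of the 14 on the list was 168 to 358 TPM in control and 25.4 to 59.2 TPM in ablated. The most abundant of them, Vip, fell from 84.7 ± 28.3 to 10.8 ± 9.26 TPM. Their part in the lower Sst and Scgn was not tested. Of 9 endocrine cell markers Tph1 alone was called, 4 had an unadjusted p under 0.05 and 2 were called by voom. Their sum, 135 to 195 TPM in control and 181 to 231 TPM in ablated, was mostly Chga and Chgb. Log2 fold changes were positive for 6 of the 9 and negative for the others, among them Pcsk1 at -1.03 (adjusted p = 0.0615) and Scg5 at -0.60 (adjusted p = 0.149).

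**Figure D2:**
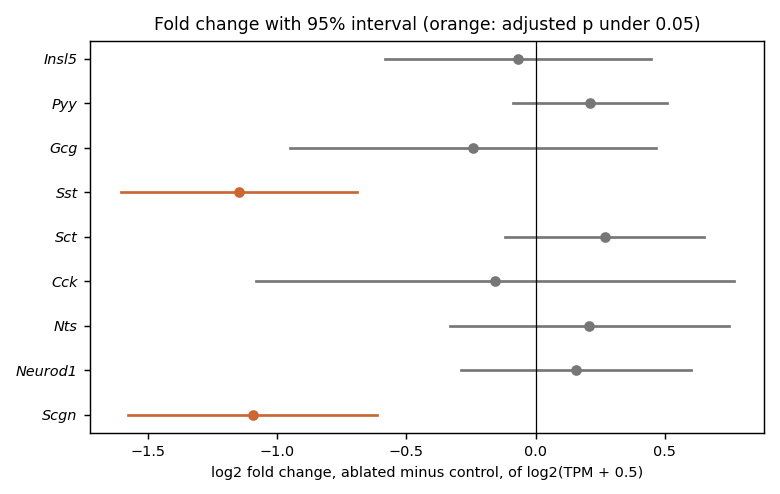
Log2 fold change of each gene (horizontal axis, ablated minus control on the log2(TPM + 0.5) scale) with its 95% interval from limma. Orange marks Sst and Scgn, whose intervals end at -0.69 and -0.61; the intervals of the other 7 genes include 0.

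The products of L cells were not called. INSL5 is a relaxin-family peptide of distal colonic L cells. Insl5 (gene ID 23919, chromosome 4, 103017872 to 103026842) was at 297, 528, 325, 426 and 421 TPM in control 1 to 5 and from 200.2 TPM in ablated 1 through a median of 369 TPM to 522 TPM in ablated 2. The groups overlapped, and 2 of 7 ablated libraries lay below every control. Their means were 399 ± 91.8 and 392 ± 122 TPM (log2 fold change -0.07, 95% interval -0.58 to 0.45, adjusted p = 0.961), so the interval allows 0.668 to 1.36 times the control level.

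Peptide YY slows transit and appetite and is made together with proglucagon. Pyy (gene ID 217212, chromosome 11, 102106676 to 102107832) was at 348, 337, 332, 344 and 428 TPM in control 1 to 5. In ablated it spanned 309 TPM (ablated 7) to 481 TPM (ablated 6) with a median of 461 TPM. Of the 7 ablated libraries 4 lay above every control and 2 below every control, so that the groups overlapped. The means were 358 ± 39.7 and 419 ± 73.7 TPM (log2 fold change 0.21, 95% interval -0.09 to 0.51, adjusted p = 0.628).

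Gcg encodes proglucagon, which L cells process to GLP-1, GLP-2 and related peptides (gene ID 14526, chromosome 2, 62474530 to 62483650). It was at 44.9, 66.8, 41.8, 78.6 and 76.5 TPM in control 1 to 5 and from 17.7 TPM in ablated 1 through 61.4 TPM to 80.4 TPM in ablated 5. Ablated 1 was the only ablated library below the control range. The means of 61.7 ± 17.4 and 55.2 ± 21.4 TPM gave a log2 fold change of -0.24 (95% interval -0.95 to 0.47, adjusted p = 0.877), and without ablated 1 it was 0.0043 (adjusted p = 0.994). The ratio of Pyy to Gcg was 26.9 in ablated 1, 10.9 in ablated 6 and 4.89 to 7.20 in the other 5 ablated libraries, against 4.38 to 7.94 in control. The 2 ablated libraries with the highest ratios were also those with the highest mitochondrial shares of their group (18.7% and 10.4%); the part of RNA quality in the ratio was not tested.

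Secretin drives bicarbonate secretion and is known mainly from the upper gut. Sct (gene ID 20287, chromosome 7, 141278330 to 141279133) was at 10.7, 10.9, 9.92, 11.6 and 13.02 TPM in control 1 to 5 and at 9.28 to 19.1 TPM in ablated, with a median of 13.9 TPM. Again 4 ablated libraries lay above and 2 below all controls (means 11.2 ± 1.17 and 14.0 ± 3.74 TPM, log2 fold change 0.27, 95% interval -0.12 to 0.65, adjusted p = 0.639). Cholecystokinin, a satiety and gallbladder hormone of the upper gut and also a neuropeptide, was rare here. Cck (gene ID 12424, chromosome 9, 121489824 to 121495694) was at 1.01, 2.50, 0.444, 1.28 and 3.37 TPM in control 1 to 5 and from 0.102 through 1.27 to 2.79 TPM in ablated. Its values rested on 72 and 84 reads per group, 1 read in the lowest library, and the groups overlapped (log2 fold change -0.16, 95% interval -1.08 to 0.77, adjusted p = 0.950). Neurotensin, a peptide of distal small-bowel N cells, was near the limit of detection. Nts (gene ID 67405, chromosome 10, 102481756 to 102490486) was at 0.589, 0.443, 0.0646, 0.270 and 0.350 TPM in control 1 to 5 and from 0.0677 through 0.563 to 0.914 TPM in ablated, from 23 and 48 reads. At this depth a difference was not detectable for Nts (log2 fold change 0.21, 95% interval -0.33 to 0.75, adjusted p = 0.853).

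NEUROD1 is a transcription factor of the endocrine lineage that acts after the fate is chosen, and is used by neurons as well. Neurod1 (gene ID 18012, chromosome 2, 79452521 to 79456751) was at 3.44, 1.92, 2.87, 2.11 and 2.25 TPM in control 1 to 5. It ranged from 1.90 TPM in ablated 5 through 3.23 TPM to 4.22 TPM in ablated 6, and the groups overlapped (log2 fold change 0.16, 95% interval -0.29 to 0.60, adjusted p = 0.874). In the authors' deposited table Sst and Scgn had log2 fold changes of -1.15 and -1.24 with false discovery rates of 0.0241 and 0.0179. No other member was under 0.05 in the authors' deposited table, where the false discovery rates of Pyy, Sct and Gcg were 0.737, 0.766 and 0.972.

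Sst and Scgn were also set against the L-cell hormones by the ratio of their levels within each library. These 6 ratios were chosen after the values were seen, from genes that were called and genes that were not, so they are a description and carry no test. Relative to Pyy, the log2 ratio of Sst was -3.01 ± 0.32 in control and -4.37 ± 0.27 in ablated, a difference of -1.36, with all 7 ablated libraries below all controls. Relative to Insl5 the difference for Sst was -1.08, with 6 of 7 below all controls. Relative to Gcg it was -0.91 with 5 of 7 below all controls, and -1.14 without ablated 1. For Scgn the differences were -1.31 against Pyy, -1.03 against Insl5 and -0.85 against Gcg, with 7, 7 and 5 of 7 ablated libraries below all controls.

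The makeup of the hormone pool was read from shares. The 7 hormone genes summed to 877 ± 123 TPM in control (740.4 to 1002 TPM) and 902 ± 184 TPM in ablated (678 to 1107 TPM). Insl5 and Pyy together took most of it, with mean shares of 45.2 ± 4.97% and 41.2 ± 5.24% in control and 42.8 ± 7.29% and 47.1 ± 8.37% in ablated. The share of Sst was 3.92 to 6.30% in control and 1.55 to 3.02% in ablated, without overlap, and that of Gcg was 5.52 to 8.76% and 2.41 to 8.29%. In ablated 1 Pyy took 65.0% and Insl5 27.3%, outside the 40.5 to 47.5% and 41.8 to 48.3% of the other 6 ablated libraries. These shares are a description and carry no test.

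**Figure D3:**
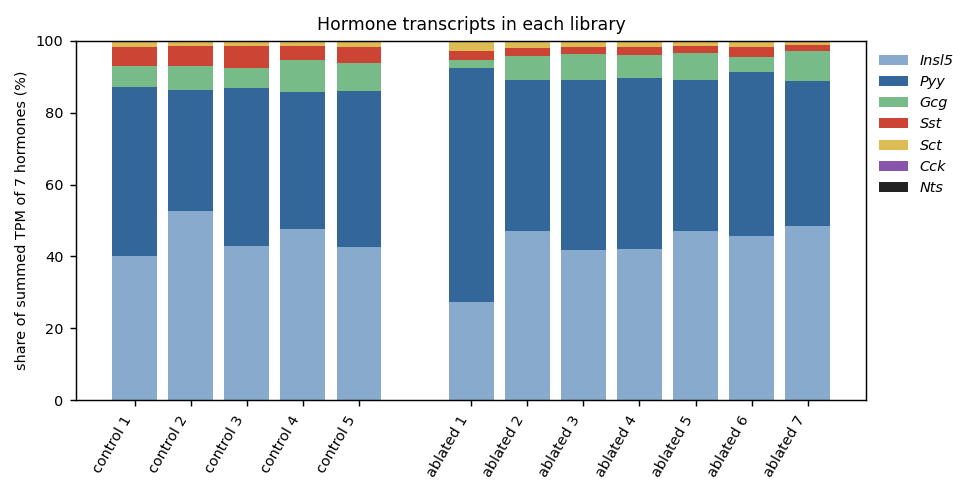
Share of each hormone gene in the summed TPM of 7 hormone genes (vertical axis, percent), 1 bar per library. The Sst segment takes 3.92 to 6.30% in control and 1.55 to 3.02% in ablated libraries, and ablated 1 has the largest Pyy segment, 65.0%.

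Hormones were also compared in how they varied between libraries of one group. After subtraction of the group means, Pyy and Sct rose and fell together over the 12 libraries (Pearson r = 0.916, Spearman rho = 0.853), with r = 0.886 within control and 0.929 within ablated. Of the 36 pairs of members this was the 1 that passed (permutation within groups, adjusted p = 0.0122 for r and 0.0241 for rho; raw p = 0.00034 and 0.00067). It kept r = 0.789 without ablated 4 and ablated 7, the libraries farthest out on Pyy, and r = 0.881 to 0.945 over 15 alternatives, but the adjusted p was 0.0655 without control 5 and 0.0580 without ablated 3, and it was 0.0482, close to the threshold, without ablated 1 or ablated 5. On both genes ablated 4 and ablated 7 were the lowest ablated libraries, and their mitochondrial shares were the lowest of the group (4.15% and 3.56%). Control 3 was the lowest control on both genes but had the highest mitochondrial share of its group (10.0%). The part of RNA quality in the correlation of Pyy and Sct was not tested. Gcg went with Insl5 (r = 0.838, rho = 0.762), though this pair missed the threshold (permutation, raw p = 0.00294 and 0.00867, adjusted p = 0.0529 and 0.156). It passed without ablated 6 (r = 0.911, permutation, adjusted p = 0.0104), and without ablated 1 it had r = 0.663 (permutation, adjusted p = 0.242). Without ablated 1 and control 3, the farthest on Gcg, its r was 0.632. Gcg and Pyy, which L cells can make together, had r = -0.07 and rho = 0.10 (permutation p = 0.878 and 0.762, adjusted p = 0.952 and 0.849), and Sst and Scgn had r = 0.343 and rho = 0.434 (permutation p = 0.301 and 0.183, adjusted p = 0.637 and 0.441). For Gcg and Pyy r was 0.497 within control, -0.187 within ablated and 0.256 without ablated 1 and control 3. For Sst and Scgn r was 0.708 within control, 0.218 within ablated and 0.582 without ablated 6 and ablated 7.

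**Figure D4:**
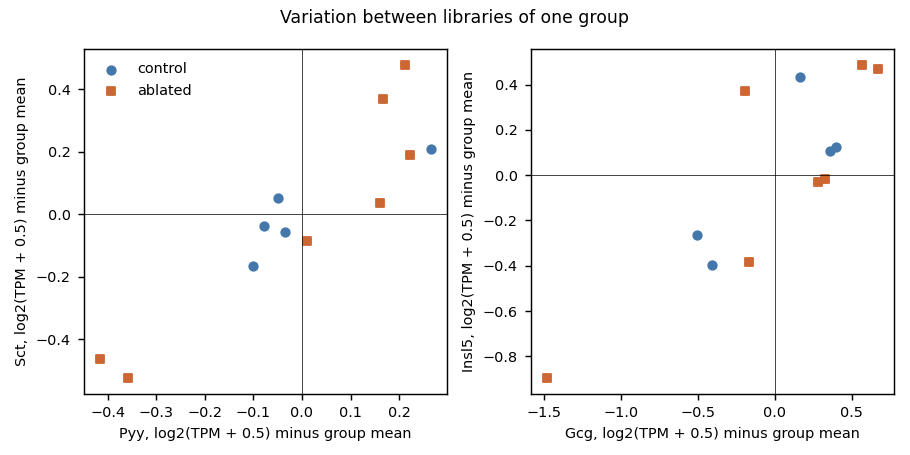
Log2(TPM + 0.5) minus the group mean in the 12 libraries for Sct against Pyy (left) and Insl5 against Gcg (right); circles are control and squares ablated libraries. On the left ablated 4 and ablated 7 are lowest on both axes, and on the right ablated 1 is lowest on both.

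By the same measure, over the same 12 libraries and all genes tested, the 3 genes most like each member were taken. For Sst they were Dixdc1 (r = 0.961), Rian (r = 0.925) and Zfp651 (r = 0.922). Scgn was most like Gap43 (r = 0.945), Tmod2 (r = 0.935) and Vegfc (r = 0.923). Those of Insl5 were Arhgap22, Otc and Rarres2 (r = 0.972, 0.957 and 0.941), those of Gcg Mrpl55, Naxd and Acp5 (r = 0.942, 0.934 and 0.931), and those of Pyy Hoxb2, Sct and A330023F24Rik (r = 0.938, 0.916 and 0.905). Sct had Slc38a9, Cep131 and Ube2o (r = 0.939, 0.939 and 0.936), and Neurod1 had Gpx7, A330033J07Rik and Sln (r = 0.933, 0.920 and 0.895). For the rare Cck and Nts the highest values were lower, with Pcsk5, Avil and Gm10643 at 0.802, 0.801 and 0.789 and Exog, Gm7589 and Snord13 at 0.839, 0.823 and 0.796. They are the highest of 16164 values each and share libraries, depth and tissue makeup. By this measure Sct ranked 2 among the genes most like Pyy, and Pyy ranked 11 for Sct. Insl5 ranked 177 for Gcg, and Gcg ranked 26 for Insl5.

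The genes around the hormones were then read from lists. Granins fill the dense granules and prohormone convertases and carboxypeptidase cut the precursors. Of 11 such genes 3 were called lower and 0 higher, with a median log2 fold change of -0.72. Scg2, secretogranin II, fell from 24.7 ± 7.38 to 5.69 ± 2.93 TPM (adjusted p = 0.00350). Scg3 fell from 7.65 ± 2.32 to 2.33 ± 1.08 TPM (adjusted p = 0.00639). The convertase Pcsk2 fell from 1.86 ± 0.809 to 0.102 ± 0.113 TPM (adjusted p = 0.000530). Each of these 3 is used by neurons as well as endocrine cells, and the part of either source in the lower levels was not tested. Pcsk1, the convertase that releases GLP-1, was at 3.94 ± 0.687 and 1.79 ± 0.934 TPM (adjusted p = 0.0615). The granins Chga and Chgb were at 73.8 ± 15.7 against 85.0 ± 6.71 TPM and 66.2 ± 10.4 against 87.0 ± 14.6 TPM (adjusted p = 0.536 and 0.250). By voom 4 were called, and 9 had an unadjusted p under 0.05. Weighting the libraries gave 6 lower and 1 higher, and 6 were lower with mitochondrial share in the model.

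Among 10 other hormone and amine genes 6 were tested. Tph1, the serotonin-synthesising enzyme of enterochromaffin cells, rose from 5.95 ± 1.11 to 11.7 ± 1.64 TPM (adjusted p = 0.00407). Tac1, the gene of substance P in neurons and enterochromaffin cells, fell from 69.5 ± 16.4 to 31.3 ± 8.50 TPM (adjusted p = 0.0134; 0.0546 without control 2 and 0.0505 without control 3). Ppy, pancreatic polypeptide, a relative of Pyy, was at 40.0 ± 14.8 and 70.6 ± 27.1 TPM (adjusted p = 0.213). Gast was at 0 in every library, and Gip and Iapp averaged under 0.15 TPM in both groups. The median of the 6 was 0.19.

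Transcription factors that specify endocrine cells had no call. Of 17 tested, 0 passed by limma, 0 had an unadjusted p under 0.05 and 0 passed by voom, with a median of 0.01. Neurog3, which starts the endocrine fate, was at 2.08 ± 0.525 and 2.04 ± 0.825 TPM and Insm1 at 3.16 ± 0.613 and 3.47 ± 1.01 TPM. The smallest p-values were those of Mnx1 (1.996 ± 0.653 and 1.27 ± 0.632 TPM, adjusted p = 0.458) and Pdx1 (0.719 ± 0.177 and 1.16 ± 0.571 TPM, adjusted p = 0.640).

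Sensors by which these cells read the lumen also had no call among 9 tested of 12, by limma or by voom, although 5 had an unadjusted p under 0.05. Ffar2, a receptor for short-chain fatty acids, was at 9.55 ± 3.35 and 19.3 ± 8.16 TPM (adjusted p = 0.157; 0.0438 with mitochondrial share in the model), and Ffar3, of the same ligands, at 1.51 ± 0.497 and 0.691 ± 0.381 TPM (adjusted p = 0.168). Gpr119, a lipid sensor of L cells, was at 0.525 ± 0.0908 and 0.812 ± 0.0796 TPM without overlap of the groups (adjusted p = 0.238).

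Receptors for the member hormones were mostly rare. Only 8 of 19 were tested and 0 passed by limma or voom, 3 at an unadjusted p under 0.05, with a median of -0.28. Sstr2, a somatostatin receptor, was at 4.39 ± 0.985 and 2.64 ± 0.661 TPM (adjusted p = 0.120; 0.0286 with a weight per library), and Npy1r, which binds peptide YY, at 9.52 ± 1.81 and 6.55 ± 2.30 TPM (adjusted p = 0.385). The GLP-2 receptor Glp2r was at 5.62 ± 1.06 and 5.74 ± 0.605 TPM. Npy2r, the receptor of peptide YY on nerves, lay under the minimum level. In the fit with no minimum it fell from 0.677 ± 0.204 to 0.171 ± 0.0926 TPM (adjusted p = 0.00843). Rxfp4, the INSL5 receptor, and Glp1r averaged under 0.25 TPM in both groups. Of 4 tested peptidases that inactivate these hormones 0 passed by limma or voom and 0 at an unadjusted p under 0.05; Ace was at 9.61 ± 1.82 and 12.5 ± 3.31 TPM (adjusted p = 0.549), Prcp at 26.6 ± 2.79 and 22.7 ± 7.09 TPM (adjusted p = 0.682) and Dpp4, which trims GLP-1, at 13.3 ± 0.955 and 12.1 ± 4.01 TPM.

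**Figure D5:**
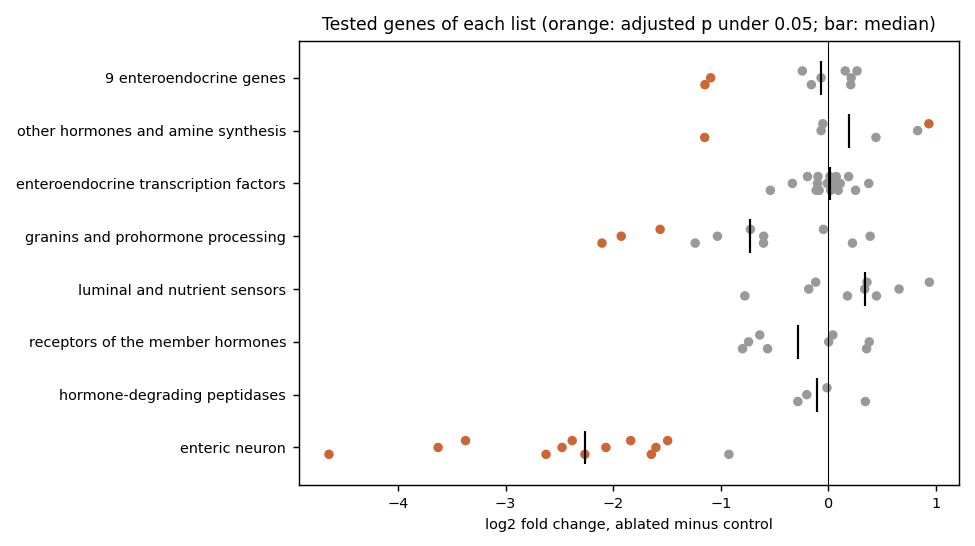
Log2 fold change (horizontal axis, ablated minus control) of every tested gene in the 9-gene set, 6 lists of related genes and the enteric neuron markers; orange marks an adjusted p under 0.05 and the bar the median. Neuron markers lie far to the left with a median of -2.26, while the 9 genes have a median of -0.07.

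Other tissue features that bear on hormone levels were read in the same way. Colonic hormones differ along the length of the colon, and of 6 tested posterior Hox genes, which mark position, 0 were called by limma or voom and 0 at an unadjusted p under 0.05; their list, mostly Hoxb13, summed to 486 to 744 TPM in control and 408 to 761 TPM in ablated. Single Hox genes varied widely within both groups: Hoxd13 was at 12.03 to 115 TPM in control and 12.05 to 109.7 TPM in ablated, and Hoxd10 at 3.52 to 22.1 and 3.44 to 21.9 TPM. Goblet cell markers moved with the groups: 3 of 7 rose by limma (Zg16, Tff3 and Fcgbp) and 2 by voom, and 5 had an unadjusted p under 0.05. The adjusted p of Fcgbp was 0.0389 and reached 0.140 over the alternatives. The sum of the list was 11426 to 16074 TPM in control and 18799.6 to 31483 TPM in ablated. Among 6 colonocyte markers 0 were called by limma or voom, 2 at an unadjusted p under 0.05, and of 7 smooth muscle markers 0 were called by either and 0 at an unadjusted p under 0.05. Smooth muscle summed to 6537 to 10229.7 TPM in control and 6791 to 22746 TPM in ablated. The part of these features in the hormone levels was not tested. With an epithelial score as a covariate Sst and Scgn had limma adjusted p of 0.00293 and 0.0168. That fit called more genes in general, 346 higher and 330 lower over all genes tested, against 68 and 163 without the score. The score is a mean of the epithelial markers and does not measure position, goblet cells or muscle.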

How the data were processed

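Total RNA of 12 colon pieces was poly(A)-selected and made into directional libraries, per the labels' protocols. Per the submitters' processing notes, bcl2fastq 2.17, HISAT and featureCounts were used with mm10, with no version for the last 3. The authors deposited TPM, identical in the per-sample files and in the series table. The authors' deposited edgeR comparison gives log2 fold change, p-value, false discovery rate and a score (F) per gene; its design is not given in the sources used here.

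The 9 genes and all lists were chosen with earlier results of these data known. The fit used log2(TPM + 0.5) of genes that reached 0.5 TPM in 5 or more libraries, in limma 3.58.1 under R 4.3.3 (trend, two-sided, Benjamini-Hochberg over all genes tested, threshold 0.05), which was tested on simulated data. Genes under the minimum were taken from a fit with no minimum. Whole reads were recovered as the smallest whole multiples, within 0.05 read, that fit a gene's TPM in all libraries, for 22842 of 22842 genes above 0. They give the depth and feed voom, an alternative. Pairs were tested with 100000 permutations within groups. Coordinates are GENCODE M21 on GRCm38, the assembly of mm10, and promoters are from RefSeq on GRCm38.p6, where all 9 genes matched by symbol. Named genes are all members, the genes of each list that passed or otherwise the 2 with the smallest p, the 3 most alike per member, Actl6b and Hbegf. Others were named after their values were seen. Alternatives changed the constant, the minimum, the scaling, weights, covariates, the replicate block and the libraries used, each left out in turn with the tested genes kept. Python 3.11.15 with numpy 2.4.6 and pandas 2.3.3 was used for the rest.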

Additional observations from a re-analysis of the deposited data

Results flagged for a closer look

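Pyy in control 5, at 428 TPM, lay apart from the other control libraries, of which the next was at 348 TPM: its gap took 0.837 of the range of the group, against a critical value of 0.71. Of 44 groups of values examined in this way 1 was marked, and chance marks about 1 in 20.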

How the results depend on the processing

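With each library left out in turn, the members called lower were 0 to 2 (0 without control 2 or control 3; 1, Sst, without control 4, ablated 6 or ablated 7), and no member was called higher under any of the 23 alternatives. The direction of Sst and Scgn was negative in all 23. Members near 0 changed sign with 1 library left out, none passing. The log2 fold change of Gcg was -0.3694 to 0.00435 (the highest without ablated 1). That of Cck was -0.4231 to 0.0998, with 0.0855 without control 5 and 0.0998 without ablated 7. That of Insl5 was -0.1674 to 0.0811, with 0.0400 without control 2 and 0.0811 without ablated 1.

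Over all genes 68 were higher and 163 lower. The higher genes were 654 with a weight per library, 346 with the epithelial score and 337 with the mitochondrial share, and 23 to 126 with 1 library left out. The lower genes were 438, 330 and 379 under the same 3 alternatives, 273 with no minimum, and 105 to 202 with 1 library left out. In the lists, other hormones had 0 to 1 lower with 1 library left out. Granins had 6 lower and 1 higher with a weight per library, 5 lower with the epithelial score and 6 lower with the mitochondrial share. Sensors had 1 higher with the mitochondrial share, and receptors had 1 lower with no minimum, a weight per library, the epithelial score or the mitochondrial share. The receptor was Npy2r with no minimum, Sstr2 with a weight per library and Sstr1 with either covariate (lowest limma adjusted p 0.0114). Pairs of members that passed numbered 0 to 2 with 1 library left out (0 without control 5 or ablated 3, 2 without ablated 6). With scaling by the median of ratios Gcg and Insl5 had an adjusted p of 0.0504. The cause of these changes was not tested, apart from the no-minimum counts, where more genes were tested.

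Same-numbered libraries are not stated to be paired, and their deviations from the group means correlated at -0.269 to 0.359, with 3 of 5 over 0.1 and 1 of 5 controls best matched by its own number. With the number as a replicate block the all-gene counts were 85 higher and 179 lower, and 2 members were lower and 0 higher. Cck and Nts rest on so few reads that only large changes could be seen.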

Other observations

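Alpi, the intestinal alkaline phosphatase of the small bowel, was higher in ablated (0.542 ± 0.199 to 1.81 ± 0.658 TPM, limma adjusted p = 0.0316, up to 0.109 over the alternatives, and not called by voom), while Fabp2, Fabp6 and Slc10a2 of the same marker list had adjusted p of 0.685, 0.930 and 0.862, and Apoa4 was at 0 in every library. Alpi was chosen after its values were seen.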
